A study of Sus scrofa with 18 samples.

Results

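The genes described here are 6 genes of extracellular matrix and plasminogen turnover in transplanted pig kidneys: the proteases MMP7 and ADAMTS1, the inhibitors TIMP1 and TIMP3, and the plasminogen activators PLAU and PLAT. They are measured by all probe sets to which the platform annotation gives 1 of these symbols and no other, which makes 9 probe sets for 6 of the 6765 genes that the annotation names this way. The 6 genes were chosen from their levels in all 5 groups of the series, so their levels and differences are given as a description, with no test, and nothing is supported with them. MMP7, TIMP1, PLAU and PLAT had 1 probe set each, ADAMTS1 had 2 and TIMP3 had 3, and the brightest over all arrays stands for a gene unless another is named.

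Metalloproteinases such as MMP7 (matrilysin) and ADAMTS1, a secreted protease that cleaves proteoglycans, cut proteins of the extracellular matrix, and tissue inhibitors of metalloproteinases such as TIMP1 and TIMP3 bind and block them. PLAU encodes urokinase and PLAT encodes tissue plasminogen activator, serine proteases that turn plasminogen into plasmin, which dissolves fibrin and can activate metalloproteinases. Urokinase is made by kidney tubules and tissue plasminogen activator by endothelium, and MMP7 is known to be induced in injured tubular epithelium.

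RNA of 18 kidneys was measured on Affymetrix pig arrays, 1 array per kidney, and a level is a log2 value per probe set. The series concerns ischemia and reperfusion injury of transplanted kidneys and carbon monoxide (CO). Its groups were transplanted kidneys with CO at 24 h (n = 4, donors 5 to 8), transplanted untreated kidneys at 24 h (n = 4, the same donors), transplanted kidneys with CO at 4 h (n = 4, donors 1 to 4), transplanted untreated kidneys at 4 h (n = 4, the same donors), and naive kidneys that were not transplanted (n = 2). The labels give no strain, age or dose, do not say whether donor, graft or recipient received CO, and in 1 field read air for the CO arrays, so CO is taken from their titles and sources. The naive kidneys had no operation and are no control for surgery, and numbers in their file names recur in those of donor 4, so they may come from animals already in the series.

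One array stood apart, that of donor 1 without CO at 4 h: its mean correlation over all probe sets was 0.982 with the naive arrays and 0.956 with its own group, and results that rest on it are given with and without it. The untreated 24 h array of donor 8 had the lowest weight in the array weighting, 0.279. All 4 proximal tubule markers measured were above the background level of 1.61 in every group. Array dates in the labels form 4 batches, and the naive and 4 h arrays share their 2 batches with only 1 of the 8 arrays of 24 h kidneys, the untreated kidney of donor 5. Times are therefore compared mostly across batches, and CO 24 h kidneys share no batch with naive or 4 h kidneys, so that date and group cannot be told apart there. The kidneys are whole tissue, in which more cells of a type and more RNA per cell cannot be told apart.

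MMP7 had the widest range of the 6 genes, with higher levels in transplanted than in naive kidneys at 4 h and higher levels again at 24 h. The CO 24 h kidneys of donors 5 to 8 had log2 levels of 11.38, 10.88, 10.87 and 10.99, and the untreated 24 h kidneys of the same donors 11.46, 11.53, 10.48 and 11.39. At 4 h, donors 1 to 4 had 9.40, 9.97, 8.79 and 8.19 in CO kidneys and 5.27, 8.26, 8.97 and 9.49 in untreated kidneys. Naive kidneys had 3.61 and 4.63. No transplanted kidney of any group was as low as either naive kidney, and no 24 h kidney was as low as any 4 h kidney, while CO and untreated kidneys overlapped at both times.

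In MMP7 the difference from naive kidneys was 6.91 ± 0.80 on the log2 scale for CO 24 h (121-fold; limma standard error, here and below) and 7.10 ± 0.80 for untreated 24 h (137-fold). It was 4.97 ± 0.80 for CO 4 h (31.4-fold) and 3.88 ± 0.80 for untreated 4 h (14.7-fold), or 4.79 without the untreated kidney of donor 1. Between the times, the 24 h level exceeded the 4 h level by 1.94 ± 0.66 in CO kidneys and by 3.22 ± 0.66 in untreated kidneys, or by 2.31 without that kidney. The order of group means was untreated 24 h (11.22), CO 24 h (11.03), CO 4 h (9.09), untreated 4 h (8.00) and naive (4.12). The neighbours untreated and CO overlapped at each time, and the gaps between the 2 times and below 4 h held no overlapping arrays. Within the only batch that holds an array of each untreated group, MMP7 stood at 11.46 in the untreated 24 h kidney, against 8.26 in the untreated 4 h kidney and 4.63 in the naive kidney.

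**Figure D1:**
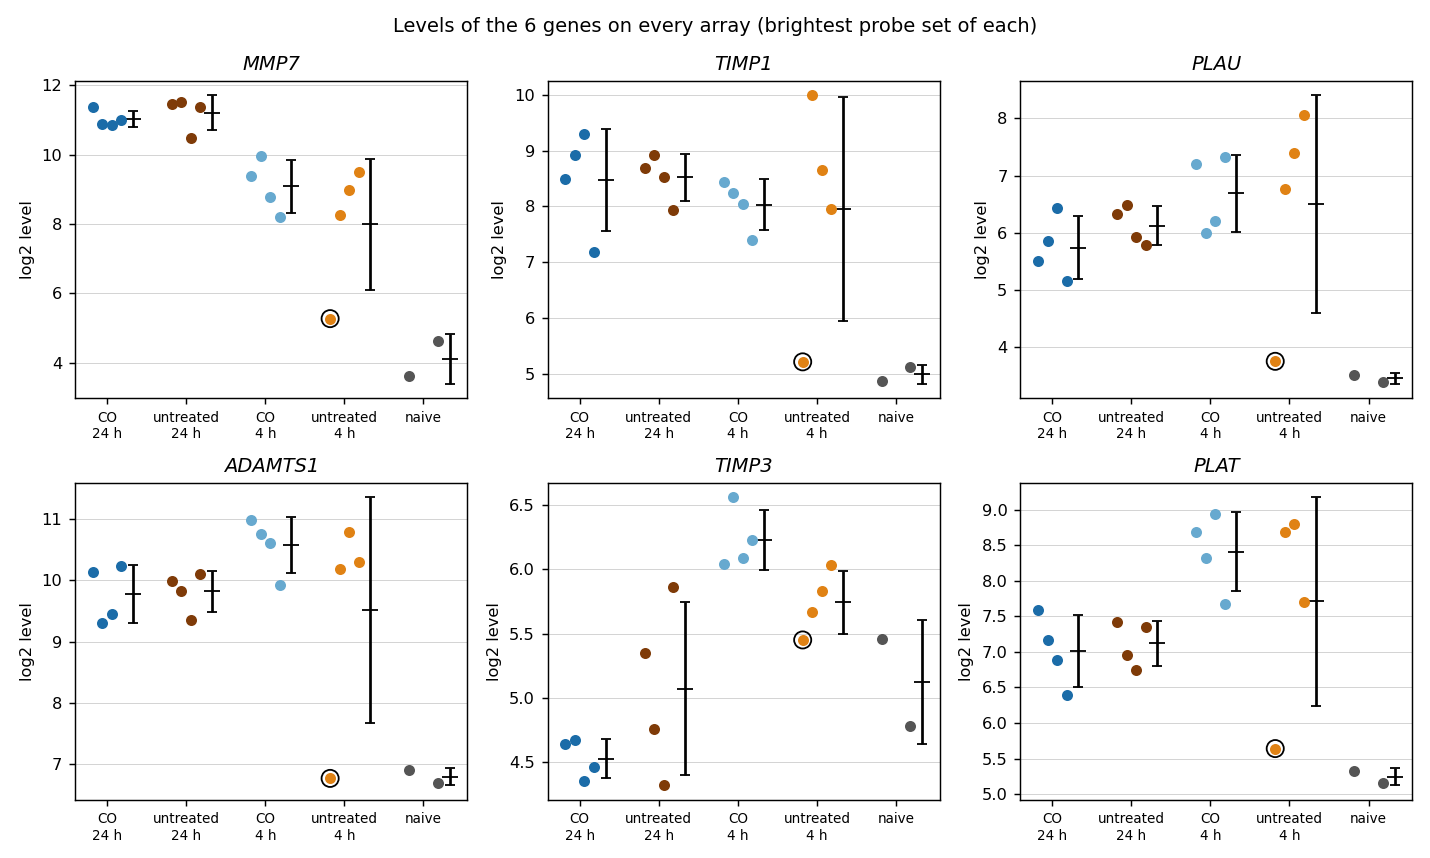
Log2 level of each gene on every array (brightest probe set; 1 point per kidney, in donor order within a group), with the group mean and SD as bars; the circled point is the untreated 4 h kidney of donor 1. MMP7 lies between 10.48 and 11.53 in all 24 h kidneys, against 3.61 and 4.63 in naive kidneys, and TIMP3 is the one gene of which CO 24 h kidneys lie below naive kidneys.

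ADAMTS1, which is induced early in many injured tissues, had its highest levels in CO 4 h kidneys. The CO 24 h kidneys had levels of 10.14, 9.31, 9.45 and 10.23 and the untreated 24 h kidneys 9.98, 9.82, 9.36 and 10.11. CO 4 h kidneys had 10.99, 10.75, 10.60 and 9.93, and untreated 4 h kidneys 6.77, 10.18, 10.79 and 10.30. Naive kidneys had 6.90 and 6.70, so that the untreated 4 h kidney of donor 1 lay within the naive range and every other transplanted kidney at least 9.31, above it. The difference from naive was 2.98 ± 0.74 for CO 24 h, 3.02 ± 0.74 for untreated 24 h, 3.77 ± 0.74 for CO 4 h (13.6-fold) and 2.71 ± 0.74 for untreated 4 h (6.55-fold), or 3.62 without donor 1.

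From 4 h to 24 h ADAMTS1 had a difference of -0.79 ± 0.61 in CO kidneys and of 0.31 ± 0.61 in untreated kidneys, and the untreated value turned to -0.61 without donor 1. All transplanted groups overlapped with their neighbours in the order of means, which was CO 4 h (10.57), untreated 24 h (9.82), CO 24 h (9.78), untreated 4 h (9.51) and naive (6.80). Without donor 1's untreated kidney the untreated 4 h mean was 10.42, above both 24 h means and below that of CO 4 h kidneys. The second ADAMTS1 probe set followed the first closely (Pearson r = 0.993 over 18 arrays of 5 groups, as a description). On it the untreated 4 h kidney of donor 1, at 6.65, lay above both naive kidneys, at 6.48 and 6.37.

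TIMP1, a secreted inhibitor of many metalloproteinases that is induced in injured and inflamed kidneys, was higher in all 4 transplanted groups, at 24 h as at 4 h. CO 24 h kidneys had levels of 8.49, 8.92, 9.30 and 7.18 and untreated 24 h kidneys 8.68, 8.93, 8.53 and 7.94. CO 4 h kidneys had 8.44, 8.24, 8.05 and 7.40 and untreated 4 h kidneys 5.21, 9.99, 8.66 and 7.95. Naive kidneys had 4.87 and 5.11, below every transplanted kidney, though donor 1's untreated kidney was only 0.22 above their mean. The 24 h and 4 h kidneys overlapped in both treatments.

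Against naive kidneys TIMP1 differed by 3.48 ± 0.86 in CO 24 h kidneys (11.2-fold), by 3.53 ± 0.86 in untreated 24 h kidneys (11.6-fold), by 3.05 ± 0.86 in CO 4 h kidneys (8.26-fold) and by 2.97 ± 0.86 in untreated 4 h kidneys (7.83-fold), or 3.88 without donor 1. The 24 h mean minus the 4 h mean was 0.44 ± 0.70 in CO kidneys and 0.57 ± 0.70 in untreated kidneys. Neither sign was stable: with array date as a block they were -0.39 and -0.17, and the untreated value was -0.35 without donor 1. In the order of means, which ran from untreated 24 h (8.52) and CO 24 h (8.47) to CO 4 h (8.03), untreated 4 h (7.96) and naive (4.99), only the step to naive kidneys held no overlapping arrays. Without donor 1's untreated kidney the untreated 4 h mean was 8.87, above those of all other groups.

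TIMP3, an inhibitor that stays bound to the matrix and also blocks ADAM and ADAMTS proteases, did not follow the other 5 genes. CO 24 h kidneys had levels of 4.64, 4.67, 4.35 and 4.46 and untreated 24 h kidneys 5.35, 4.76, 4.32 and 5.86. CO 4 h kidneys had 6.04, 6.56, 6.09 and 6.23 and untreated 4 h kidneys 5.45, 5.67, 5.83 and 6.03. Naive kidneys had 5.46 and 4.78, and overlapped with both untreated groups. CO 4 h kidneys lay above all other kidneys of the series, and CO 24 h kidneys lay below both naive kidneys and below every 4 h kidney.

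For TIMP3 the difference from naive was -0.59 ± 0.32 in CO 24 h kidneys, -0.05 ± 0.32 in untreated 24 h kidneys, 1.11 ± 0.32 in CO 4 h kidneys (2.16-fold) and 0.62 ± 0.32 in untreated 4 h kidneys, or 0.72 without donor 1. The 24 h level minus the 4 h level was -1.70 ± 0.26 in CO kidneys and -0.67 ± 0.26 in untreated kidneys. Array date as a block gave -1.35 with CO and -0.36 without. The block also gave -0.25 for CO 24 h and 0.25 for untreated 24 h kidneys against naive, so that the untreated value turned sign. The CO 24 h difference from naive was -0.25 without naive kidney 1 and -0.93 without naive kidney 2. The second TIMP3 probe set followed the first (r = 0.983 over 18 arrays, as a description), with levels of 3.91 to 4.55 in CO 24 h kidneys, 4.03 to 5.62 in untreated 24 h kidneys, 5.92 to 6.17 in CO 4 h kidneys, 5.34 to 5.73 in untreated 4 h kidneys, and 5.37 and 4.42 in naive kidneys. On it CO 24 h kidneys overlapped with naive kidneys, while CO 4 h kidneys again lay above all others. The third, at group means of 1.08 to 1.43, was below background and gives no information on a change.

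**Figure D2:**
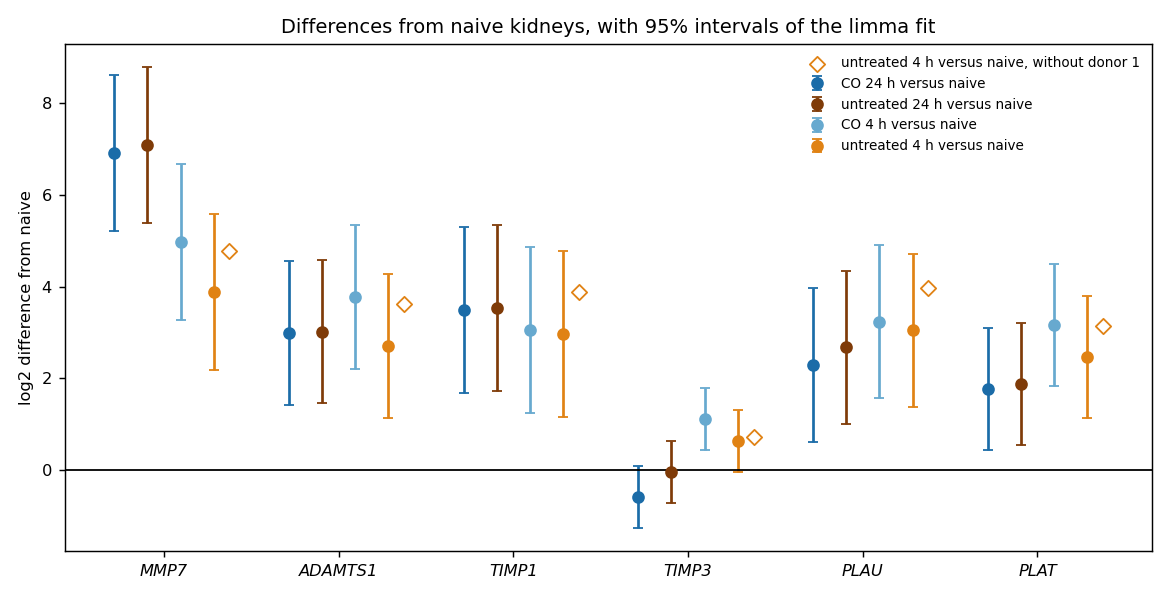
Log2 difference of each gene from naive kidneys in the 4 transplanted groups (points, with 95% intervals of the limma fit), and in open diamonds the untreated 4 h difference without the kidney of donor 1. MMP7 reaches 6.91 and 7.10 at 24 h, the points of the other genes except TIMP3 lie between 1.76 and 3.77 (the diamonds reach 3.96 for PLAU), and TIMP3 lies between -0.59 and 1.11.

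The urokinase gene PLAU was higher in every transplanted group, with the top values at 4 h. CO 24 h kidneys had levels of 5.51, 5.86, 6.44 and 5.15, and untreated 24 h kidneys 6.32, 6.49, 5.92 and 5.78. CO 4 h kidneys had 7.21, 6.00, 6.21 and 7.32 and untreated 4 h kidneys 3.75, 6.77, 7.40 and 8.06. Naive kidneys had 3.51 and 3.39, and all transplanted kidneys were above them, donor 1's untreated kidney by 0.30 over their mean. CO and untreated kidneys overlapped at each time, and so did the times within each treatment.

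The difference of PLAU from naive was 2.29 ± 0.79 in CO 24 h kidneys (4.89-fold), 2.68 ± 0.79 in untreated 24 h kidneys (6.39-fold), 3.24 ± 0.79 in CO 4 h kidneys (9.44-fold) and 3.05 ± 0.79 in untreated 4 h kidneys (8.27-fold), or 3.96 without donor 1. The 24 h level minus the 4 h level was -0.95 ± 0.65 in CO kidneys and -0.37 ± 0.65 in untreated kidneys, or -1.29 without donor 1 and 0.15 without donor 4. With array date as a block they were -0.56 in CO kidneys and -0.0037 in untreated kidneys. Group means ran from CO 4 h (6.69) over untreated 4 h (6.50), untreated 24 h (6.13) and CO 24 h (5.74) to naive (3.45), and of these steps only the last held no overlapping arrays. Without donor 1's untreated kidney the untreated 4 h mean was 7.41, above that of CO 4 h kidneys.

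PLAT, the tissue plasminogen activator gene, was also higher in every transplanted group and lower at 24 h than at 4 h in CO kidneys. CO 24 h kidneys had levels of 7.59, 7.17, 6.88 and 6.39 and untreated 24 h kidneys 7.42, 6.96, 6.75 and 7.35. CO 4 h kidneys had 8.69, 8.32, 8.94 and 7.67, and untreated 4 h kidneys 5.64, 8.69, 8.80 and 7.70. Naive kidneys had 5.33 and 5.16, below all transplanted kidneys. In CO kidneys the times did not overlap, and in untreated kidneys they overlapped only through donor 1, whose kidney at 5.64 lay below the 24 h range of 6.75 to 7.42 while the other 3 lay above it.

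Against naive kidneys PLAT differed by 1.76 ± 0.63 in CO 24 h kidneys (3.39-fold), by 1.87 ± 0.63 in untreated 24 h kidneys (3.66-fold), by 3.16 ± 0.63 in CO 4 h kidneys (8.93-fold) and by 2.46 ± 0.63 in untreated 4 h kidneys (5.51-fold), or 3.15 without donor 1. The 24 h level minus the 4 h level was -1.40 ± 0.51 in CO kidneys and -0.59 ± 0.51 in untreated kidneys, or -1.28 without donor 1. Within the shared batch the untreated 24 h kidney of donor 5 had 7.42, against 8.69 in the untreated 4 h kidney of donor 2. The order of means was CO 4 h (8.41), untreated 4 h (7.71), untreated 24 h (7.12), CO 24 h (7.01) and naive (5.25), and only the step to naive kidneys held no overlapping arrays.

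A probe set was called where limma gave a Benjamini-Hochberg adjusted p under 0.05 over 23999 probe sets. Of the 6 genes, 3 were called higher in CO 24 h kidneys against naive (MMP7, TIMP1 and ADAMTS1), where 5.75% of all probe sets were called higher and 5.93% lower, and 4 in untreated 24 h kidneys (the same and PLAU), where 6.79% were called higher and 7.77% lower. In CO 4 h kidneys all 6 were called higher, against 6.84% of all probe sets higher and 6.72% lower, and in untreated 4 h kidneys MMP7 alone, against 0.942% higher and 0.563% lower. Between times, MMP7 was called higher at 24 h in untreated kidneys (5.15% of all probe sets higher and 4.57% lower) and TIMP3 lower at 24 h in CO kidneys (10.2% of all higher and 7.44% lower). Between CO and untreated kidneys limma called 0 of the 6 genes and 0% of all probe sets at either time, with 281 probe sets at an unadjusted p under 0.05 at 24 h and 787 at 4 h. With array date as a block the calls against naive were 0 in CO 24 h kidneys, 1 in untreated 24 h (MMP7), 5 in CO 4 h (without TIMP3) and 0 in untreated 4 h kidneys, and between times 0 in both treatments. Because the genes were chosen on these contrasts, nothing is read from these counts.

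Groups without overlap were counted in the same way. Higher than naive without overlap were 5 of the 6 genes in CO 24 h kidneys (18.7% of all probe sets) and 5 in untreated 24 h kidneys (19.8%, with 19.2% lower). At 4 h they were 6 in CO kidneys (17.6%, with 20% lower) and 4 in untreated kidneys (11.5%, with 15.8% lower). TIMP3 was lower without overlap in CO 24 h than in naive kidneys, as were 20.4% of all probe sets, and higher without overlap in CO 4 h than in untreated 4 h kidneys, as were 0.908% of all, with as many lower. At 24 h 0 of the 6 lay apart between CO and untreated kidneys (0.7% of all higher and 0.483% lower). From 4 h to 24 h MMP7 was higher without overlap in CO kidneys (11.2%) and in untreated kidneys (7.11%, with 6.14% lower), and TIMP3 and PLAT were lower without overlap in CO kidneys (9.68%). Nothing is read from these counts either.

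CO and untreated kidneys were compared within donors, each of which gave 1 of each. At 24 h the CO kidney minus the untreated kidney of a donor was -0.18 ± 0.45 for MMP7, -0.04 ± 0.32 for ADAMTS1, -0.05 ± 0.63 for TIMP1, -0.54 ± 0.66 for TIMP3, -0.39 ± 0.61 for PLAU and -0.11 ± 0.57 for PLAT (log2, mean ± SD, n = 4 donors). In each of the 6 genes donors differed in sign at this time. The CO and the untreated kidney of donor 5 were measured on different array dates, as were those of donor 6. With array date as a block, the group difference of ADAMTS1 turned to 0.17. The others were then -0.05 for MMP7, -0.15 for TIMP1, -0.50 for TIMP3, -0.36 for PLAU and -0.06 for PLAT. TIMP3 was lower with CO in donors 5, 6 and 8, by 0.71, 0.09 and 1.40, and 0.03 higher in donor 7. Its group difference of -0.54 was -0.28 without the untreated kidney of donor 8, the array of lowest weight. For PLAU the CO kidney was lower in donors 5, 6 and 8, at 5.51, 5.86 and 5.15 against 6.32, 6.49 and 5.78, and higher in donor 7. The 95% intervals of the 24 h group differences ran from -1.57 to 1.20 for MMP7, -1.32 to 1.24 for ADAMTS1, -1.53 to 1.43 for TIMP1, -1.09 to 0.01 for TIMP3, -1.75 to 0.98 for PLAU and -1.20 to 0.98 for PLAT. These 6 intervals come from the fit over all groups without the donor as a block, and each held 0. The second TIMP3 probe set had a group difference of -0.63, with an interval from -1.23 to -0.02 that lay below 0. On it the CO kidney was lower in donors 5, 7 and 8, by 0.85, 0.03 and 1.71, and 0.08 higher in donor 6.

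At 4 h the CO kidney minus the untreated kidney was 1.09 ± 2.38 for MMP7, 1.06 ± 2.15 for ADAMTS1, 0.08 ± 2.17 for TIMP1, 0.49 ± 0.32 for TIMP3, 0.19 ± 2.19 for PLAU and 0.70 ± 1.58 for PLAT (log2, mean ± SD, n = 4 donors). Donor 1 set these means: its CO kidney exceeded its untreated kidney by 4.13 in MMP7, 4.22 in ADAMTS1, 3.23 in TIMP1, 3.46 in PLAU and 3.05 in PLAT. Without its untreated kidney the group differences were 0.18 for MMP7, 0.15 for ADAMTS1, -0.84 for TIMP1, -0.72 for PLAU and 0.01 for PLAT. In donors 2, 3 and 4, TIMP1 was lower in the CO kidney by 1.75, 0.61 and 0.56, and PLAU by 0.77, 1.19 and 0.74. MMP7 differed in sign among those donors. The 95% intervals at 4 h ran from -0.29 to 2.48 for MMP7, -0.22 to 2.34 for ADAMTS1, -1.40 to 1.56 for TIMP1, -1.18 to 1.56 for PLAU and -0.39 to 1.78 for PLAT. These intervals too come from the fit without the donor as a block.

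TIMP3 was the one gene of the 6 with the same sign in all 4 donors at 4 h, higher with CO by 0.59, 0.89, 0.26 and 0.21. Its second probe set was higher with CO in all 4 donors as well, by 0.65, 0.67, 0.36 and 0.43. The difference was 0.39 without donor 1's untreated kidney. Its 95% interval in the limma fit, from -0.06 to 1.04, held 0. That fit had no donor block, so the interval does not measure the spread of the differences within donors.

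**Figure D3:**
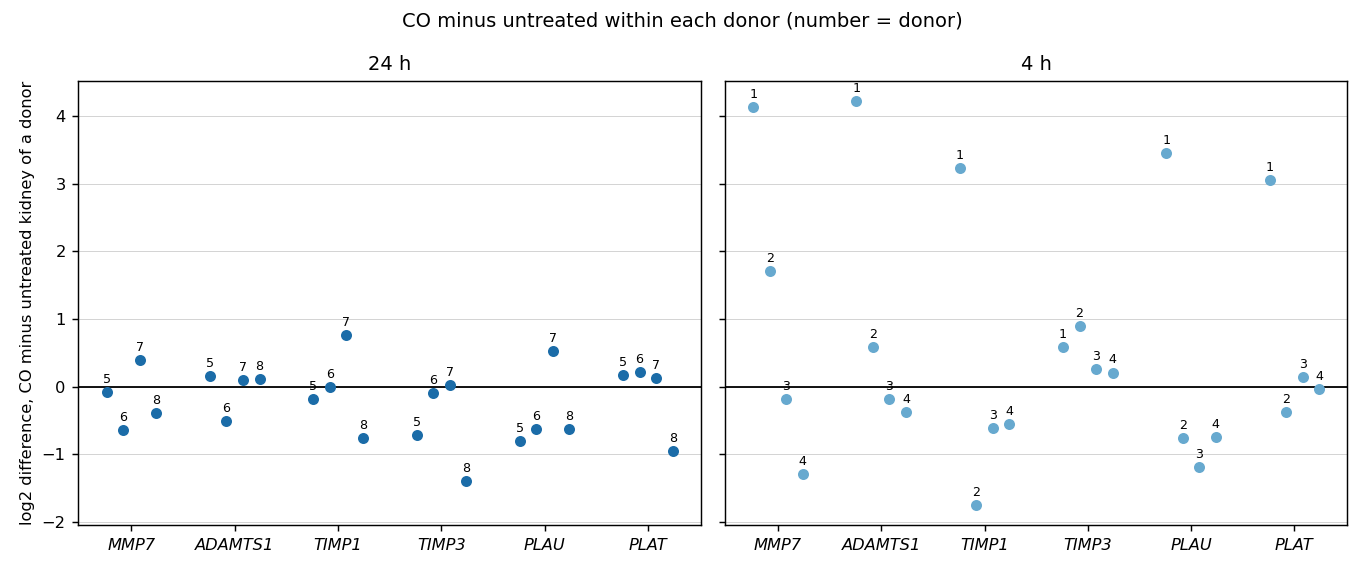
Log2 difference between the CO and the untreated kidney of each donor for the 6 genes, at 24 h (left) and 4 h (right); each point is 1 donor, whose number stands above it, and the line marks no difference. Donor 1 lies at 3.05 to 4.22 in every gene but TIMP3, and at 24 h the points lie between -1.40 and 0.77.

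Marker genes of other cells moved with these groups, and their part in the differences was not tested. The mean level of 6 injured tubule markers was 7.85 to 8.05 in CO 24 h kidneys, 7.54 to 8.22 in untreated 24 h kidneys, 7.26 to 7.77 in CO 4 h kidneys, 5.99 to 7.48 in untreated 4 h kidneys and 5.79 to 5.95 in naive kidneys, and of these only SOX9 was below background. Against naive kidneys 5 of the 6 were called higher in CO 24 h kidneys, 4 in untreated 24 h, 4 in CO 4 h and 1 in untreated 4 h kidneys. Donor 1's untreated kidney had the 5.99, next to the naive kidneys here too.

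The mean level of 11 granulocyte and macrophage markers was 3.23 to 5.10 in CO 24 h kidneys, 3.76 to 5.25 in untreated 24 h kidneys, 3.27 to 3.64 in CO 4 h kidneys, 3.30 to 5.05 in untreated 4 h kidneys and 2.43 to 3.05 in naive kidneys. S100A12 was below background in both 24 h groups and in naive kidneys, S100A8 in CO 24 h and naive kidneys, S100A9 in naive kidneys, and FCGR1A in CO 4 h kidneys. Called higher than naive were 3 of the 11 in CO 24 h and 5 in untreated 24 h kidneys, and 0 in either 4 h group. In donors 2, 3 and 4, in which TIMP1 and PLAU were lower in the CO kidney at 4 h, this mean was 3.27, 3.64 and 3.62 in CO kidneys, against 5.05, 4.47 and 4.79 in untreated kidneys. In donor 1, in which TIMP1 and PLAU were higher in the CO kidney by 3.23 and 3.46, it was 3.30 in both kidneys. None of the 11 was called between CO and untreated kidneys at either time.

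The 9 endothelial markers, cells known to make tissue plasminogen activator, had means of 4.87 to 5.20 in CO 24 h kidneys, 4.65 to 5.52 in untreated 24 h kidneys, 4.44 to 5.64 in CO 4 h kidneys, 4.62 to 5.23 in untreated 4 h kidneys and 4.35 to 4.43 in naive kidneys. All 9 were above background in every group. The 6 stroma and smooth muscle markers, also all above background, lay at 6.91 to 7.78 in CO 24 h kidneys, 6.58 to 7.57 in untreated 24 h kidneys, 6.37 to 7.10 in CO 4 h kidneys, 6.45 to 7.48 in untreated 4 h kidneys and 6.35 to 6.57 in naive kidneys. The 4 proximal tubule markers lay at 6.69 to 8.09 in CO 24 h kidneys, 5.90 to 7.07 in untreated 24 h kidneys, 7.75 to 9.25 in CO 4 h kidneys, 8.71 to 9.39 in untreated 4 h kidneys and 9.69 to 9.75 in naive kidneys. Of 6 lymphocyte markers, 0 were called higher in CO 24 h and 2 in untreated 24 h kidneys (median differences 1.37 and 1.93). Of 2 podocyte markers, 1 was called lower in CO 4 h kidneys and 0 in the other 3 groups.

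The genes whose levels were most like each of the 6 over the 18 arrays were named by Pearson's r, with no p, since the arrays share 5 groups, 8 donors and 4 dates. Those of MMP7 were TUBA1B, a tubulin (r = 0.967, Spearman's rho 0.905), SPP1, which encodes osteopontin (0.965, rho 0.907), and PSMD14, a proteasome subunit (0.951, rho 0.928). ADAMTS1 was most like BZW2 (0.972, rho 0.907), ACSL4, an acyl-CoA synthetase (0.963, rho 0.812), and LIF, a cytokine of the IL-6 family (0.943, rho 0.864). TIMP1 was most like LRRC59 (0.955, rho 0.924), TNFRSF1B, a receptor of TNF (0.951, rho 0.864), and DKC1 (0.948, rho 0.800).

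The 2 plasminogen activators had different genes beside them. PLAU was most like DNAJC3, a chaperone of the endoplasmic reticulum (0.939, rho 0.860), FOSL1, a subunit of the transcription factor AP-1 (0.938, rho 0.878), and TNFRSF12A, the TWEAK receptor (0.937, rho 0.872). PLAT was most like CD46, a regulator of complement (0.948, rho 0.860), SYS1 (0.938, rho 0.926) and IL4R, a chain of the interleukin-4 receptor (0.938, rho 0.899). TIMP3, with the lowest values of the 6, was most like TMEM43 (0.902, rho 0.899), OCLN, the tight junction protein occludin (0.895, rho 0.938), and YPEL5 (0.891, rho 0.920).

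Around the 6 genes stand other genes of matrix turnover, taken from lists of which 67 of 128 genes were measured by a probe set with that symbol alone. They comprised 7 other metalloproteinases of the MMP family, 4 inhibitors of metalloproteinases, 7 ADAM and ADAMTS proteases, 10 genes of plasminogen, its receptors and activating proteases, 8 inhibitors of plasmin and its activators, 16 cathepsins, meprins and other proteases, and 15 matrix substrates and matricellular proteins. These were tested with limma as above. PLAUR, the urokinase receptor, is not analysed here.

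Of the 7 other MMP genes (MMP1, MMP2, MMP3, MMP9, MMP13, MMP14 and MMP20), 0 were called in any of the 8 comparisons, with at most 1 at an unadjusted p under 0.05 in a comparison. MMP2, a gelatinase, averaged 5.62 ± 0.66 in CO 24 h, 5.51 ± 0.32 in untreated 24 h, 5.14 ± 0.28 in CO 4 h and 5.92 ± 0.90 in untreated 4 h kidneys (SD, n = 4 each), against 5.79 ± 0.11 in naive kidneys (n = 2). MMP14, a membrane-bound activator of MMP2, averaged 3.83 to 4.05 in the transplanted groups and 3.94 in naive kidneys. MMP9, the other gelatinase, lay at 1.49 to 1.69 in the transplanted groups and 1.94 in naive kidneys, next to the background of 1.61. The lowest adjusted p of MMP2, MMP9 and MMP14 against naive kidneys was 0.136.

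TIMP2, which takes part in the activation of MMP2 as well as in its inhibition, rose in both 24 h groups, and it was the 1 called gene of 4 inhibitors. CO 24 h kidneys had 7.81, 8.37, 8.42 and 6.72 and untreated 24 h kidneys 8.12, 8.33, 7.84 and 7.76, against 5.70 and 6.06 in naive kidneys. The rise was 1.95 ± 0.54 with CO (limma adjusted p = 0.0283) and 2.14 ± 0.54 without (adjusted p = 0.0151). At 4 h the differences of 1.19 ± 0.54 with CO (adjusted p = 0.162) and 1.60 ± 0.54 in untreated kidneys (adjusted p = 0.112) did not pass. Among the alternatives, the CO 4 h difference passed in 1 of 14 and the untreated 4 h difference in 3 of 14. The 24 h calls of TIMP2 were lost in 6 of 14 alternatives with CO and in 3 of 14 without. Array date as a block was among these in both. Of the ADAM genes, ADAM9, a membrane-bound protease, rose in CO 4 h kidneys by 1.71 ± 0.32 (limma adjusted p = 0.00646), in untreated 4 h kidneys by 1.49 ± 0.32 (adjusted p = 0.0359) and in untreated 24 h kidneys by 1.21 ± 0.32 (adjusted p = 0.0186). In CO kidneys ADAM9 was 0.87 ± 0.26 lower at 24 h than at 4 h (adjusted p = 0.0300), and ADAM28 was 0.72 ± 0.20 higher (adjusted p = 0.0200), at 2.71 against 1.98.

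Of the 10 genes of plasminogen, its receptors and activating proteases, 2 were called higher and 3 lower in CO 24 h kidneys against naive. These counts were 3 and 3 in untreated 24 h, 2 and 1 in CO 4 h, and 1 and 0 in untreated 4 h kidneys. PLG, plasminogen itself, was not among the called genes. ANXA2, which with S100A10 binds plasminogen and tissue plasminogen activator at the cell surface, rose by 2.95 ± 0.49 in CO 24 h (limma adjusted p = 0.00196), 2.95 ± 0.49 in untreated 24 h (adjusted p = 0.00119), 2.84 ± 0.49 in CO 4 h (adjusted p = 0.00501) and 2.08 ± 0.49 in untreated 4 h kidneys (adjusted p = 0.0473). Its mean level was 10.46 in CO 24 h and in untreated 24 h kidneys, 10.36 in CO 4 h and 9.59 in untreated 4 h kidneys, against 7.51 in naive kidneys. Donor 1's untreated kidney had 7.92, and the other 3 untreated 4 h kidneys at least 9.85. The untreated 4 h call of ANXA2 was lost in 7 of 14 alternatives. S100A10 rose in CO 4 h kidneys by 1.48 ± 0.33 (adjusted p = 0.0121) and in untreated 24 h kidneys by 1.05 ± 0.33 (adjusted p = 0.0455), and ENO1, an enolase that can bind plasminogen, rose by 0.98 ± 0.23 in CO 24 h (adjusted p = 0.0121) and 1.00 ± 0.23 in untreated 24 h kidneys (adjusted p = 0.00858).

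KLK1, the tissue kallikrein of the distal nephron, had levels of 6.36, 5.53, 6.25 and 7.18 in CO 24 h kidneys and 7.22, 5.29, 6.55 and 6.71 in untreated 24 h kidneys, against 9.45 and 9.80 in naive kidneys. It fell by 3.30 on the log2 scale with CO and by 3.18 without (limma adjusted p = 0.00266 and 0.00217). Of the 2 loop and distal tubule markers measured, 1 was called lower in each 24 h group, with median differences of -1.96 with CO and -2.30 without, and their part in this was not tested. HGFAC, the activator of hepatocyte growth factor, fell by 2.20 in CO 24 h and by 2.35 in untreated 24 h kidneys (adjusted p = 0.000833 and 0.000336), and HABP2, a plasma protease that can activate urokinase, fell by 1.38 in CO 24 h and by 1.61 in untreated 24 h kidneys (adjusted p = 0.0160 and 0.00527). HABP2 also fell in CO 4 h kidneys, by 1.13 (adjusted p = 0.0379). PLG, plasminogen itself, had levels of 1.96 to 2.80 in CO 24 h, 2.00 to 2.48 in untreated 24 h, 2.17 to 2.83 in CO 4 h and 2.37 to 4.13 in untreated 4 h kidneys, against 3.12 and 3.24 in naive kidneys, and did not pass in any comparison (lowest adjusted p = 0.0974). Of 8 inhibitors of plasmin and its activators, 0 were called against naive kidneys, with 1 to 3 at an unadjusted p under 0.05. SERPINA1 fell in CO kidneys at 24 h against 4 h, by 0.36 (adjusted p = 0.0478), which was lost with the donor as a block (adjusted p = 0.0508), where SERPING1 passed in its place (1.11 higher, adjusted p = 0.0482). The SERPINA1 call was lost in 13 of 16 alternatives, that with the donor block among them. Its means of 2.10 at 24 h and 2.46 at 4 h lay not far above the background of 1.61.

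Of the cathepsins and other proteases, CTSS, the cathepsin S of antigen-presenting cells, rose by 2.13 ± 0.29 in CO 24 h (limma adjusted p = 0.000587), 2.68 ± 0.29 in untreated 24 h (adjusted p = 0.000142) and 1.30 ± 0.29 in untreated 4 h kidneys (adjusted p = 0.0400). Its levels were 9.41, 9.75, 9.74 and 8.97 in CO 24 h kidneys, 9.63, 10.26, 10.13 and 10.04 in untreated 24 h kidneys, 7.77 to 8.40 in CO 4 h kidneys, 8.15 to 9.05 in untreated 4 h kidneys and 7.14 and 7.53 in naive kidneys. CTSK, a collagen-cutting cathepsin, rose by 1.06 ± 0.32 in CO 24 h, 1.42 ± 0.32 in untreated 24 h and 1.09 ± 0.32 in CO 4 h kidneys (adjusted p = 0.0394, 0.00736 and 0.0340). The brush border proteases MEP1B (meprin) and ANPEP (aminopeptidase N) fell at 24 h, MEP1B by 2.25 with CO and 2.97 without, and ANPEP by 1.96 with CO and 1.92 without (adjusted p = 0.0283, 0.00529, 0.0109 and 0.00972). These 2 falls stand beside those of the proximal tubule markers, of which 3 of 4 were called lower in each 24 h group. CST3, the cathepsin inhibitor cystatin C, fell by 0.84 in CO 24 h, by 0.95 in untreated 24 h and by 0.67 in CO 4 h kidneys (adjusted p = 0.00539, 0.00183 and 0.0187).

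Of 15 matrix substrates and matricellular proteins, SPP1 was called higher in 3 groups against naive kidneys and CYR61 and THBS1 in 1. SPP1 had levels of 12.31, 11.66, 11.62 and 12.37 in CO 24 h kidneys, 12.13, 11.83, 11.68 and 12.44 in untreated 24 h kidneys, 11.53, 11.86, 11.33 and 10.84 in CO 4 h kidneys, 8.84, 11.07, 11.47 and 10.92 in untreated 4 h kidneys, and 8.55 and 8.40 in naive kidneys. It rose by 3.52 ± 0.51 in CO 24 h (limma adjusted p = 0.000894), 3.54 ± 0.51 in untreated 24 h (adjusted p = 0.000513) and 2.91 ± 0.51 in CO 4 h kidneys (adjusted p = 0.00517). The difference of 2.10 ± 0.51 in untreated 4 h kidneys did not pass (limma adjusted p = 0.0509). There donor 1's untreated kidney, at 8.84, lay near the naive kidneys, while the others had 10.92 to 11.47. No SPP1 difference without that kidney is given. CYR61, a matricellular early response gene, and THBS1, thrombospondin 1, rose in CO 4 h kidneys by 2.37 ± 0.53 and 1.40 ± 0.38 (limma adjusted p = 0.0116 and 0.0259). Neither was called in untreated 4 h kidneys, though their means there were close to those with CO. CYR61 averaged 8.38 in untreated 4 h, 8.76 in CO 4 h and 6.39 in naive kidneys, and THBS1 9.71, 9.87 and 8.47. Donor 1's untreated kidney had 6.79 in CYR61, and the other untreated 4 h kidneys 8.73 to 9.02. THBS1 had 9.43 to 10.24 in CO 4 h kidneys, against 9.12 and 7.81 in naive kidneys. Its call was lost on leaving out either naive kidney, with an adjusted p of up to 0.385 over its alternatives, and its difference was 0.74 without naive kidney 2. In CO kidneys SPARC and BGN (biglycan) were 1.35 ± 0.41 and 0.97 ± 0.31 higher at 24 h than at 4 h and THBS1 0.94 ± 0.31 lower (adjusted p = 0.0325, 0.0436 and 0.0478). In untreated kidneys LOX, which crosslinks collagen, was 1.63 ± 0.43 lower at 24 h than at 4 h (limma adjusted p = 0.0251). These calls between times were not stable. Those of SPARC, BGN and THBS1 were each lost in 9 of 16 alternatives, and that of LOX in 8 of 16.

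**Figure D4:**
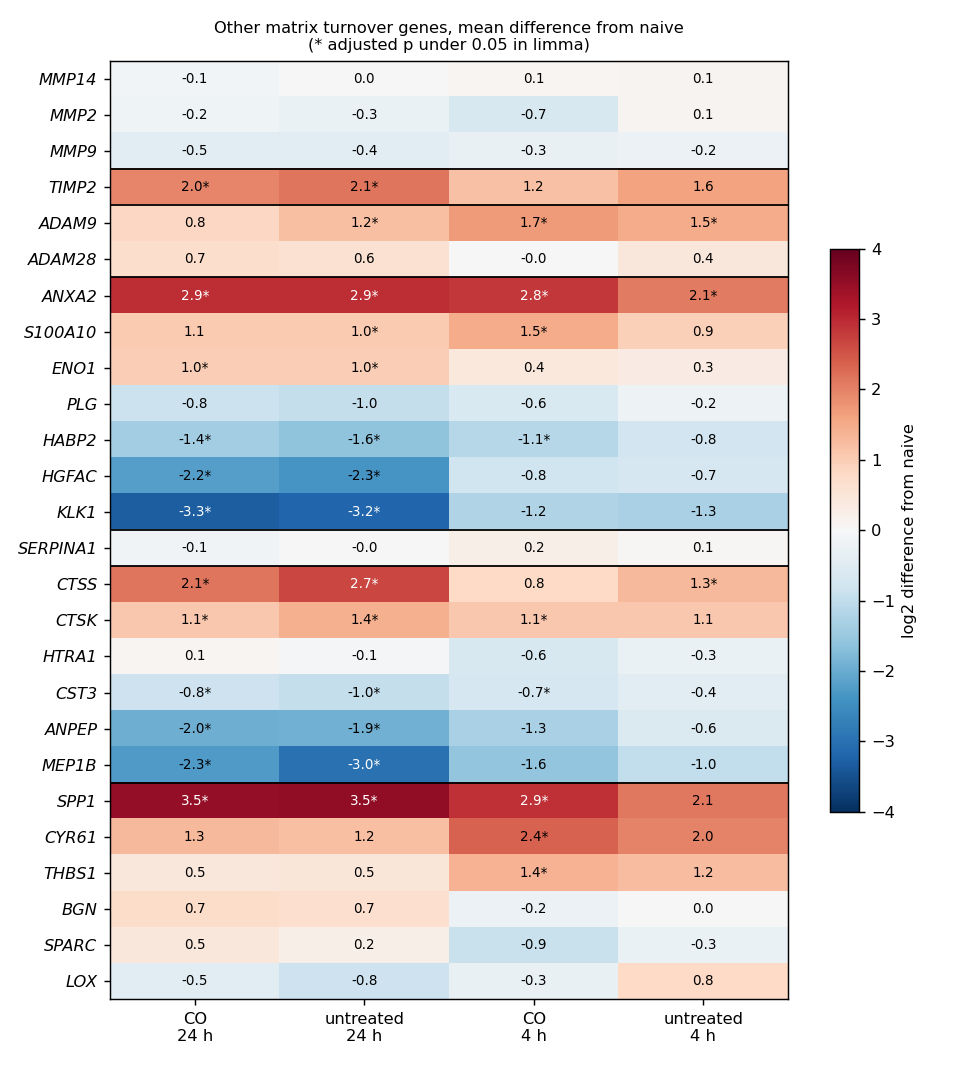
Mean log2 difference from naive kidneys of the named genes of the wider lists, by transplanted group, with lines between the lists; colour and number give the difference and a star marks an adjusted p under 0.05 in limma. The 3 other MMP genes shown have no star, ANXA2 has one in all 4 groups, and KLK1, HGFAC, MEP1B and ANPEP have one in both 24 h groups.

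Over all 67 genes, 6 were called higher and 7 lower in CO 24 h kidneys against naive (11.7% of all probe sets called), with a median difference of -0.07 (all probe sets -0.02). In untreated 24 h kidneys these were 8 and 8 (14.6%, median 0.03 against 0.01), in CO 4 h kidneys 7 and 2 (13.6%, median -0.08 against -0.01), and in untreated 4 h kidneys 3 and 0 (1.5%, median 0.08 against -0.03). Between CO and untreated kidneys 0 of 67 were called at either time (0%), with 2 at 24 h and 8 at 4 h at an unadjusted p under 0.05. CTSS, singled out after its values were seen, was the only 1 of the 67 with the same sign in all 8 donors (0.533% of all probe sets). Its CO kidney was lower by 0.22, 0.52, 0.39 and 1.07 in donors 5 to 8 and by 0.44, 0.67, 0.59 and 0.38 in donors 1 to 4, and neither time passed in limma (adjusted p = 1.00 at 24 h and 0.999 at 4 h). From 4 h to 24 h, 5 were higher and 5 lower in CO kidneys (17.6%) and 3 higher and 8 lower in untreated kidneys (9.72%). FAP and DPP4 are among those lower and were not singled out by the rule for named genes.

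These counts moved with the batch and with single arrays. With array date as a block, which leaves 1 array to link the 24 h kidneys with the others, the count against naive was 0 in CO 24 h and 1 in untreated 24 h kidneys (CTSS, limma adjusted p = 0.0380), and between times it was 0 in both treatments. The calls at 24 h above therefore rest on comparisons across array dates. The untreated 4 h count was 15 without donor 1's untreated kidney, 1 without that of donor 4, and 0 without that of donor 2 or 3 or either naive kidney. The CO 4 h count of 9 was 5 without donor 1's CO kidney and 0 without either naive kidney. At 24 h, leaving out naive kidney 1 or 2 gave 6 and 5 with CO (13 with all arrays) and 7 and 8 without CO (16 with all arrays). From 4 h to 24 h, the CO count of 10 was 4 without the CO kidney of donor 1, 4, 5 or 6, 6 without that of donor 3 and 3 without that of donor 7. The untreated count of 11 was 6 without donor 4, 5 without donor 5 and 3 without donor 6.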

How the data were processed

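RNA of 18 pig kidneys was measured on Affymetrix arrays. The deposited log2 values are summaries per probe set made by the authors with RMA, per the submitters' processing notes, and they ran from 0.226 to 13.46, with medians between 3.75 and 3.94 per array. Probes differ in brightness, so levels are compared between arrays and never between probe sets. Arrays hold no counts, and their number limits the precision. Replicates within a transplanted group are kidneys of separate donors, per the labels, and nothing says whether the 2 naive kidneys come from separate animals.

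Controls (124 of 24123 probe sets) were dropped. The other 23999 were fitted unfiltered and without a block in 1 model of 5 groups (limma 3.58.1, functions lmFit and eBayes; R 4.3.3), with 13 residual degrees of freedom, two-sided, with Benjamini-Hochberg adjustment. The platform annotation gives 10069 probe sets 1 symbol, 198 several and 13732 none. Background (1.61) is the 95th percentile of 17 tag controls. The genes of interest, the lists and the tests were chosen with earlier results of these data known.

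Named genes are, beside the 6 described, up to 3 called genes of largest change per list and comparison, 5 fixed genes (TIMP2, MMP2, MMP9, MMP14 and PLG), and the 3 most alike genes of each. SERPING1 was named after its values were seen. Donor numbers pair CO and untreated kidneys, since each donor number stands on 1 kidney of each. After group means were removed, partners correlated between -0.20 and 0.57, over 0.1 in 6 of 8 donors. Alternatives were variance model, filter, quantile normalization, array weights, a block for array date or for donor (with statmod 1.5.0), only the compared groups, other probe sets of a gene, single arrays left out and, added after the data were seen, both kidneys of donor 1 left out. The fit was tested on simulated data. Plots used matplotlib 3.10.9 (Python 3.11.15).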

Additional observations from a re-analysis of the deposited data

Results flagged for a closer look

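Within groups of 4 arrays, 1 array stood far from the other 3 in 6 of 140 groups examined, over 35 genes and probe sets (by Dixon's gap test at the 95% level). Chance marks about 1 in 20 groups.

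The untreated 4 h kidney of donor 1 accounted for 2 of these: ADAMTS1 was 6.77 there and 10.18 to 10.79 in the other 3 kidneys, and CYR61 was 6.79 there and 8.73 to 9.02 in the others. The untreated 24 h kidney of donor 7 was low in MMP7, at 10.48 against 11.39 to 11.53, and on the second ADAMTS1 probe set, at 8.85 against 9.39 to 9.48. CYR61 was 8.22 in the CO 4 h kidney of donor 2 and at least 8.89 in the other 3. MMP9 was 1.52 in the untreated 4 h kidney of donor 3 and 1.75 to 1.76 in the others, all close to background.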

How the results depend on the processing

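Of 744 recomputed differences of the 6 genes, 734 moved by less than 1 SD between replicates and 0 called ones changed sign. The 10 that moved more were 4 with array date as a block (TIMP1 and PLAU at untreated 24 h against naive, 3.10 and 2.98, and TIMP1 and TIMP3 at CO 24 h against CO 4 h, -0.39 and -1.35) and 6 of the dim TIMP3 probe set. The variance model, the filter, the fit of only the compared groups and the donor block cannot change a difference of group means. Their recomputed differences were therefore bound to stay the same. In comparisons with untreated 4 h kidneys, donor 1 widens the SD. There the TIMP1 difference from 4 h to 24 h, 0.57, counted as moved by less than 1 SD at -0.17 with array date as a block. The counts of called genes among the 67 moved more. For untreated 4 h against naive (3) the count was 5 without dim probe sets, 16 with array weights, 1 with array date as a block, 0 when the fit held only the 2 groups compared, 15 without both kidneys of donor 1, and 0 to 15 on leaving out 1 array. For CO 4 h (9) it was 21 with array weights and 0 to 12 on leaving out 1 array. For untreated 24 h (16) it was 27 with array weights, 1 with date as a block and 7 to 19 without 1 array. For CO 24 h (13) it was 25, 0 and 5 to 15 under the same changes, and 23 with only the compared groups. For untreated 24 h against 4 h (11) it was 21, 0 and 3 to 12, and 4 with only the compared groups. For CO 24 h against 4 h (10) it was 17, 0 and 3 to 14. The causes were not tested, but the date block leaves 1 array to link 24 h with the other arrays. CO against untreated stayed at 0 at both times in every alternative run. With the donor number as a replicate block the counts were 3, 9, 16, 13, 0, 0, 11 and 10, as without it, and apart from SERPINA1 and SERPING1 no call changed. Of 1474 recomputed tests of genes of the lists, 1222 kept their side of the threshold, 240 lost the call, 12 gained it and 0 reversed. These covered only the tests called in the main fit and those of the 5 fixed genes. Gains of other list genes could therefore not be counted here, and they show only in the counts of called genes above. Differences of dim probe sets such as MMP9 and PLG are limited by background.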
